A study of Mus musculus with 3 samples.

Results

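Cytokines, chemokines and their receptors were examined in renin-producing cells of the mouse kidney. Members were the probe sets with 1 gene symbol whose name marks a chemokine or chemokine receptor (Ccl, Ccr, Cxcl, Cxcr, Cx3c), an interleukin or interleukin receptor, a tumour necrosis factor (TNF) ligand or receptor (Tnf, Tnfsf, Tnfrsf), or a colony stimulating factor or leukaemia inhibitory factor (LIF) family gene (Csf1, Csf1r, Csf2, Csf3, Lif, Lifr, Osm, Osmr, Il6st). There were 173 such probe sets among 35557, for 164 genes among 19938. The cells came from male adults of the Ren1c-YFP transgenic line, whose renin promoter drives yellow fluorescent protein (YFP). The strain is unspecified in the labels. Every animal drank water with captopril (0.5 mg/ml), which blocks angiotensin-converting enzyme, and ate low-salt chow for 2 weeks, and YFP-positive cells were sorted from digested kidney cortex without pooling. The series holds 1 group of 3 arrays, named replicates 2, 4 and 5, and no untreated or unsorted sample was analysed here. The values therefore describe signals in sorted cells and not an effect of captopril, salt or the sort. The labels say that samples were not pooled but not outright that each came from a separate mouse, so the spread behind each p-value is that between these samples and may be technical.

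Cytokines are secreted or membrane-bound proteins through which cells signal to each other, and most act by bringing receptor chains together at the cell surface. Interleukins of the IL-6 group and LIF share the receptor chain gp130 and signal through JAK kinases and STAT factors, while TNF family receptors recruit adaptor proteins that lead to NF-kB. Chemokines bind G protein-coupled receptors and guide leukocytes along their gradients. In the kidney, tubule, vessel and stromal cells as well as resident macrophages are known sources and targets of these signals.

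The labelled cell type was checked against marker genes. All 12 measured mural and renin cell markers were above background, with Rgs5, a G protein regulator of mural cells, at 12.39, 12.26 and 12.46 log2 signal in replicates 2, 4 and 5. Ren1 itself was not analysed here. All 14 tubule markers were also above background, with the proximal tubule gene Kap at 13.16, 13.00 and 13.11, as were 8 of 14 endothelial markers (57.1%) and 4 of 8 fibroblast markers, where 37.0% of all genes were. Of the leukocyte markers, 1 of 15 macrophage and dendritic, 0 of 12 lymphocyte and 0 of 10 neutrophil and mast cell genes passed limma's test, and at an unadjusted p under 0.05 the counts were also 1, 0 and 0. The arrays correlated at Pearson r of 0.962 to 0.973 across the 19938 genes, which are not independent replicates.

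Most cytokine system genes were not measured above background in the sorted cells. A gene was called above background when its log2 signal exceeded the array's background level, the 95th percentile of 1015 olfactory receptor genes, by limma's one-sided test at a Benjamini-Hochberg adjusted p under 0.05, over the whole gene table. The level was 6.21, 6.32 and 6.52 in replicates 2, 4 and 5. By this test 23 of 164 members passed, against 37.0% of all genes (7384 of 19938), and 30 members had an unadjusted p under 0.05. In gene families of other tissues the same test called 21 of 1015 olfactory receptor genes, which set the level, 1 of 163 vomeronasal receptor genes and 9 of 44 keratin-associated protein genes (20.5%), so a call alone does not show that a gene is expressed. The members' median lay 0.64 log2 units under the level, where the median over all genes lay 0.02 under it. Receptors passed in 15 of 76 cases and ligands in 7 of 86, and the remaining called member was Il18bp, which encodes a secreted inhibitor of IL-18. Without replicate 2, 4 or 5 the members called numbered 19, 19 and 25, against 30.5%, 31.5% and 39.3% of all genes, and the ligands 3, 3 and 8. The level decides these counts. When the 99th percentile set it, 3 of 164 members were called, namely Il6st, Tnfrsf21 and Tnfrsf12a (against 16.5% of all genes). When vomeronasal receptor genes set it, 80 were (against 67.3% of all genes). With the mean of a gene's probe sets 20 members were called (36.9% of all genes), and with dim genes left out 24 (51.4%). Probe affinity also sets a signal, so the height of a gene over the level does not rank it by abundance. In bulk samples a low signal from fewer cells of a type and from less RNA per cell cannot be told apart.

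**Figure D1:**
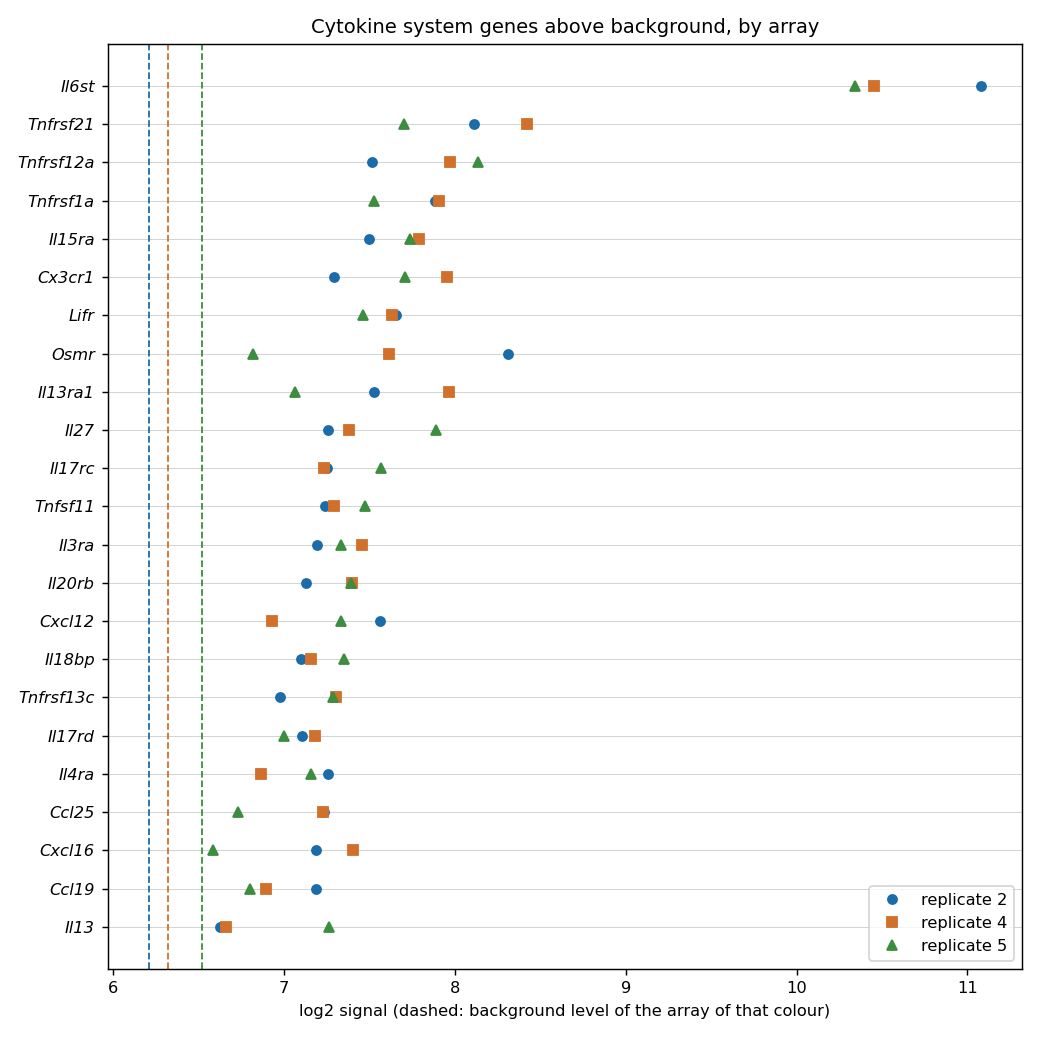
Log2 signal of the 23 cytokine system genes above background, 1 row a gene, with a point for each array (replicates 2, 4 and 5) and dashed lines at the background levels of 6.21, 6.32 and 6.52. Il6st stands apart at 10.34 to 11.08, and the other 22 genes lie between 6.58 and 8.42.

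Il6st, Lifr and Osmr, which encode receptor chains of the gp130 system, were above background, while Il6ra, Il27ra and Cntfr of the same system did not pass. Lifr and Osmr were the 2 called of the 8 colony stimulating factor and LIF family genes, where 37.0% of all genes were called. Il6st, which encodes gp130, the chain shared by the receptors of IL-6, IL-11, LIF and oncostatin M, had log2 signals of 11.08, 10.45 and 10.34 in replicates 2, 4 and 5. This was 4.28 above the level (95% interval 3.65 to 4.90, limma adjusted p = 5.2e-06), and all 3 arrays lay far above their levels. Lifr, the LIF receptor chain that pairs with gp130, had 7.66, 7.63 and 7.46, which is 1.23 above the level (limma adjusted p = 0.000977). Osmr, the oncostatin M receptor chain, had 8.31, 7.61 and 6.82, also 1.23 above the level but with a wider interval (0.48 to 1.99, limma adjusted p = 0.00917). Thus Lifr was nearly level across the arrays, whereas Osmr was high in replicate 2 and near the background level in replicate 5. With the 99th percentile of the olfactory receptor genes as level, Il6st was still called, but Lifr and Osmr were not. Il6ra, the chain that binds IL-6 itself, had 6.58, 6.75 and 6.68 and did not pass (limma adjusted p = 0.0863). Neither did Cntfr, the chain that binds ciliary neurotrophic factor, at 6.48, 6.44 and 6.61 (limma adjusted p = 0.326), nor Il27ra, the IL-27 receptor chain, whose mean lay under the level.

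None of Il6, Il11, Lif and Osm, which encode ligands of these receptors, passed. Il6, an inflammatory cytokine, had 3.50, 3.09 and 3.17, the lowest mean signal among the 164 members. Lif had 5.42, 5.14 and 5.46, and Osm had 5.66, 5.65 and 5.99, with every array under its level. Ctf1, which encodes the gp130 ligand cardiotrophin 1 and is not among the members by name, was called at 7.22, 6.57 and 7.08 (limma adjusted p = 0.0221) but not without replicate 2 (limma adjusted p = 0.134).

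Promoter windows are shown for some members picked by their call and by CG count or motif, so the differences between them follow from the choice. For reference, the 250 bases before the annotated start are given 5′ to 3′ for Il6st and Osmr, chosen as called receptor chains with many CG, and for the ligand genes Il6, Cxcl1 and Cxcl2, which were not called and hold an NF-kB-type motif, marked in capitals. The sequences are RefSeq's on build GRCm38.p6.
Il6st: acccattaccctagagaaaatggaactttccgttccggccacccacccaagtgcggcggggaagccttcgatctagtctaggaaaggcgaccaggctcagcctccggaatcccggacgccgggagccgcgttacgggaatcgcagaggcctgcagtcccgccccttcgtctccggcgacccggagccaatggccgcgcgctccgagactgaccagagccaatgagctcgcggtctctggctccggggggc
Osmr: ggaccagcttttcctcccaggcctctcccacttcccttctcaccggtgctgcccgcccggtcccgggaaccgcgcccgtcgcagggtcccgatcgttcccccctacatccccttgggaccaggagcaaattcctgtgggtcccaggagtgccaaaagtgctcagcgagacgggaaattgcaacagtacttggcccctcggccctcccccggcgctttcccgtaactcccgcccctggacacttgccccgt
Il6: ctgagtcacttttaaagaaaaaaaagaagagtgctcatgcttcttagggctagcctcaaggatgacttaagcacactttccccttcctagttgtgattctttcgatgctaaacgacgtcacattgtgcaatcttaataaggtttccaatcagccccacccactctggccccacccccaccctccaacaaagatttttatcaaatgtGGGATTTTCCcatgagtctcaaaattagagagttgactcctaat
Cxcl1: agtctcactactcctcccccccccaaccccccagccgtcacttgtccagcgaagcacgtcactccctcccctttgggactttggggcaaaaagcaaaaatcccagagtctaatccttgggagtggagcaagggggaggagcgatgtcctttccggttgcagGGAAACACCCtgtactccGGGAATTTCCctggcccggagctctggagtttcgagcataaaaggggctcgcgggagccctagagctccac
Cxcl2: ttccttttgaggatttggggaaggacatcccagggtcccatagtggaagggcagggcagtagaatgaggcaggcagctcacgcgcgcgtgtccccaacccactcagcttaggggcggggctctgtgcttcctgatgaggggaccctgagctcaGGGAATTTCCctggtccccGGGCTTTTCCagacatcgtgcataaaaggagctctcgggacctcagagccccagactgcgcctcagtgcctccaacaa

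They lie at chr13:112463820-112464069 on the plus strand for Il6st, chr15:6874314-6874563 on the minus strand for Osmr, chr5:30012864-30013113 on the plus strand for Il6, chr5:90890995-90891244 on the plus strand for Cxcl1 and chr5:90903649-90903898 on the plus strand for Cxcl2. The dinucleotide CG occurs 26 times in the Il6st window and 18 times in that of Osmr, and 3, 10 and 9 times in those of Il6, Cxcl1 and Cxcl2. Not all called receptor chains are like the pair shown: the windows of Lifr hold 3 and 43 CG, those of Il15ra 2 and 12, that of Il17rc 4 and that of Il20rb 1. The NF-kB-type motif searched on both strands was a run of 3 G, any 2 bases, 3 T and 2 C. Each motif was counted on its own, whether or not it overlapped another. In Il6 it begins 44 bases before the start. In Cxcl1 it begins 89 and 71 bases before the start, and in Cxcl2 97 and 78 bases before it. A match describes the letters only.

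Over the members as a whole, 143 promoter windows were found for 124 of the 164 genes. The median number of CG was 10 in the 24 windows of called members and 4 in the 119 windows of members not called. The same order held over all genes, with a median of 16 in windows of called genes and 7 in those of genes not called. The NF-kB-type motif stood in 15 of the 143 member windows (10.5%), against 1.41% of all 32851 promoters. It stood in 1 of 24 windows of called members, that of Il17rc, and in 14 of 119 windows of members not called, among them those of Csf1, Ccl20, Cxcl3 and Tnfrsf9. Over all genes it stood in 1.19% of windows of called genes and 1.48% of those of genes not called. Whether called members differ from the others in this motif was not tested, and 24 windows are few. The STAT-type motif TTCNNNGAA, which reads the same on both strands, stood in 12.6% of member windows and 7.02% of all promoters, and TATAAA on either strand in 19.6% and 12.4%.

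**Figure D2:**
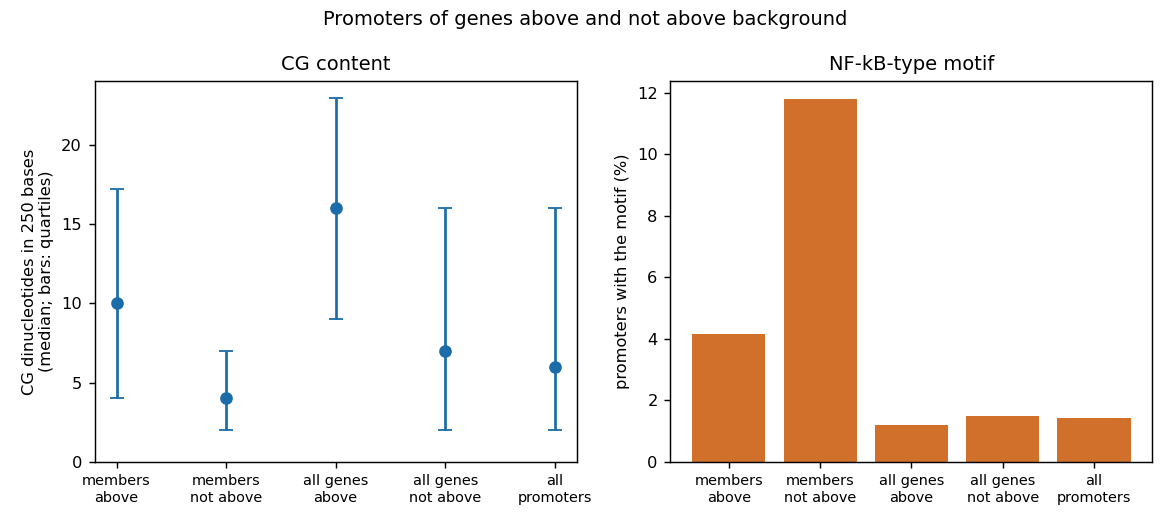
Left, number of CG dinucleotides in the 250 bases before the start (point, median; bars, quartiles). Right, share of these windows with the NF-kB-type motif on either strand, in percent. Groups are called members, members not called, all called genes, all genes not called and all promoters, and the motif stands in 11.8% of the windows of members not called.

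TNF receptors were called in 4 of 20 cases (20.0%) and TNF ligands in 1 of 10 (10.0%), against 37.0% of all genes. Tnfrsf21, which encodes death receptor 6, had 8.11, 8.42 and 7.70, which is 1.73 above the level (limma adjusted p = 0.000486). Tnfrsf12a, the receptor Fn14 for the ligand TWEAK, had 7.51, 7.97 and 8.14, which is 1.52 above it (limma adjusted p = 0.000371). Tnfrsf1a, the broadly used TNF receptor 1, had 7.88, 7.90 and 7.53, which is 1.42 above it (limma adjusted p = 0.000743). For these 3 genes every array lay at least 1 log2 unit above its level. By contrast Tnfrsf1b, the TNF receptor 2 of leukocytes and endothelium, had 5.98 to 6.31 over the 3 arrays and lay under the level on each, as did Tnf itself at 5.49, 5.89 and 5.71. Tnfrsf13c, the receptor of B cells for the survival factor BAFF, was called at 6.97, 7.31 and 7.29 (limma adjusted p = 0.00319). The 12 lymphocyte markers, of which 0 passed, summed to 493, 540 and 569 in linear signal. Of the B cell markers, Cd79a had 4.56, 4.11 and 4.19, Ms4a1 had 4.32, 4.45 and 4.44, and Cd79b had 5.99, 5.74 and 6.40. The part of B cell transcripts in the Tnfrsf13c signal was not tested.

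The TNF ligand called was Tnfsf11, which encodes RANKL, a factor of osteoclast formation, at 7.24, 7.29 and 7.48 (limma adjusted p = 0.00158). Its receptor gene Tnfrsf11a had 5.84, 6.43 and 6.39 and did not pass. The decoy receptor gene Tnfrsf11b, osteoprotegerin, stood just outside the threshold at 6.68, 6.50 and 6.93 (limma adjusted p = 0.0676), though above the level on each array. Tnfsf10, the death ligand TRAIL, had 6.93, 6.71 and 6.45, and it was called without replicate 5 (limma adjusted p = 0.0228, against 0.123 with all arrays). The TNF ligand count was then 2, where 39.3% of all genes were called. The TNF ligand with the lowest mean was Tnfsf8 (4.62 ± 0.18, SD, n = 3) and the TNF receptor with the lowest was Tnfrsf17 (5.13 ± 0.16, SD, n = 3).

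**Figure D3:**
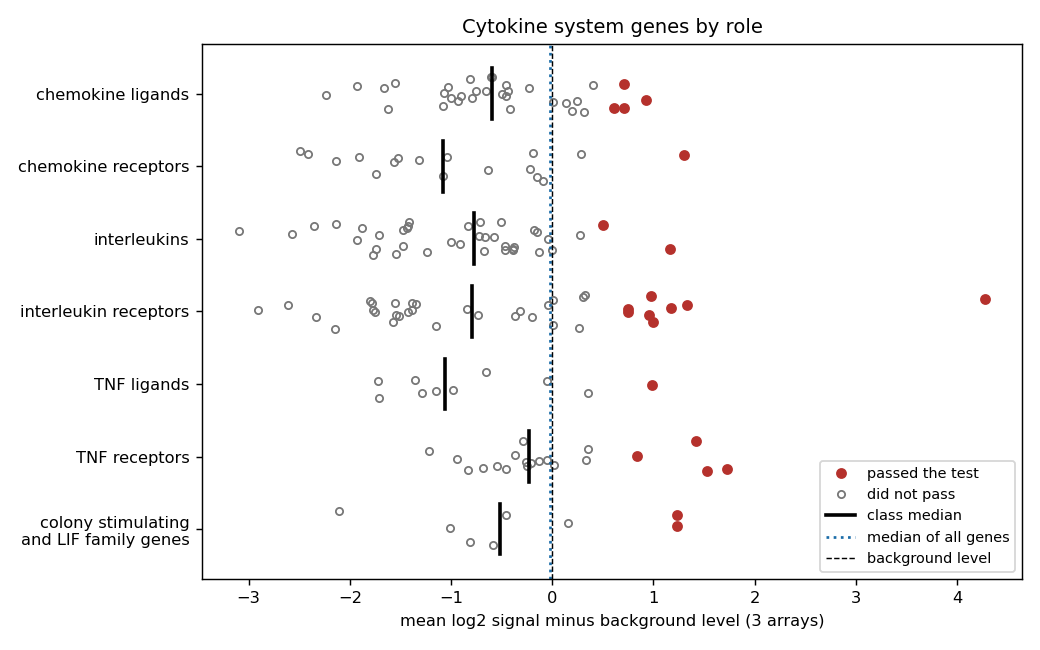
Mean log2 signal minus the background level for 162 of the 164 members, grouped by role (Il18bp and Il1bos are not drawn), with called genes filled, genes not called open, class medians as bars and the median of all genes dotted. Every class median lies under 0, from -0.23 for TNF receptors to -1.08 for chemokine receptors, and Il6st stands alone at 4.28.

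Interleukin receptors, Il6st included, were called in 8 of 36 cases (22.2%) and interleukins in 2 of 38 (5.26%), against 37.0% of all genes. Il15ra, the chain that presents IL-15 to other cells, had 7.49, 7.79 and 7.74 (limma adjusted p = 0.000568). Both chains of the type II receptor for IL-4 and IL-13 passed. Il13ra1 had 7.53, 7.96 and 7.06 (limma adjusted p = 0.00341), and Il4ra had 7.26, 6.86 and 7.16 (limma adjusted p = 0.00715). Stat6, the factor that this receptor uses, was called too, at 7.99, 7.67 and 7.75. Tyk2, a kinase of the JAK family, had 5.89, 5.72 and 5.74, under the level on each array, and did not pass. The other called receptor chains were Il17rc, a subunit of the IL-17 receptor, at 7.25, 7.23 and 7.56, Il3ra, the chain that binds IL-3, at 7.19, 7.46 and 7.33, Il20rb, a chain of receptors for IL-20 family cytokines, at 7.13, 7.40 and 7.39, and Il17rd, known as an inhibitor of fibroblast growth factor signalling, at 7.10, 7.18 and 7.00. Their limma adjusted p lay between 0.00156 and 0.00633. Il17ra, Csf2rb and Il20ra, which encode partner chains of Il17rc, Il3ra and Il20rb, did not pass. Their means minus the level were -0.32, -0.49 and -1.39. Il22ra1, a further partner chain of Il20rb, had 6.45, 6.73 and 6.77, above the level on each array, and did not pass either (limma adjusted p = 0.0942). Its second probe set had 5.28, 4.86 and 5.27. The second probe set of Il17rd had 6.06, 6.15 and 6.59, and with the mean of both the gene missed the threshold (limma adjusted p = 0.0609). The interleukin receptor with the lowest mean was Il1rapl2 (3.44 ± 0.13, SD, n = 3), a gene of the nervous system.

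The 2 interleukins called were Il27, the p28 subunit of IL-27, a cytokine whose receptor also holds gp130, at 7.25, 7.38 and 7.89 (limma adjusted p = 0.00104), and Il13, a type 2 cytokine of lymphocytes, at 6.62, 6.66 and 7.26 (limma adjusted p = 0.0264). Both were highest in replicate 5. Ebi3, which encodes the other subunit of IL-27, had 5.74, 5.52 and 5.87, under the level on every array, and did not pass. The call of Il27 thus covers 1 subunit. Il13 lost its call when replicate 2, 4 or 5 was left out (limma adjusted p = 0.0717, 0.0782 and 0.0738). The inflammatory gene Il1b had 5.90, 6.12 and 5.85, and Il34, a second ligand of the Csf1 receptor, had 6.24, 6.15 and 6.52, and neither passed. Il18bp was called at 7.10, 7.15 and 7.35 (limma adjusted p = 0.00275), whereas Il18 had 4.82, 5.02 and 4.79.

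Chemokine ligands were called in 4 of 33 cases (12.1%) and chemokine receptors in 1 of 17 (5.88%), against 37.0% of all genes. Cxcl12, a homeostatic chemokine of stromal cells, had 7.56, 6.93 and 7.33, which is 0.93 above the level (limma adjusted p = 0.00456). Its receptor Cxcr4 had 6.41, 5.98 and 6.38 and did not pass, while the atypical receptor Ackr3, which binds and clears Cxcl12, was called at 7.52, 7.66 and 7.36 (limma adjusted p = 0.00127). Cxcl16, a membrane-bound chemokine, had 7.18, 7.40 and 6.58, Ccl25, a chemokine of thymus and gut, had 7.23, 7.23 and 6.73, and Ccl19, a chemokine of lymph nodes, had 7.19, 6.89 and 6.80. Among the called chemokine genes these 3 had the largest limma adjusted p, at 0.0242, 0.0152 and 0.0196, and all were lowest in replicate 5. They missed the threshold without replicate 2 (limma adjusted p = 0.114, 0.0859 and 0.120) and without replicate 4 (limma adjusted p = 0.111, 0.0692 and 0.0636). The chemokine ligand count was then 1, where 30.5% and 31.5% of all genes were called. Ccl19 and Ccl25 also missed it with the mean of their probe sets (limma adjusted p = 0.0752 and 0.326). The mouse genome holds near-identical copies of Ccl19, and its 5 probe sets can read the same transcripts, so its signal is uncertain.

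The leukocyte-attracting chemokine Ccl2 had 5.58, 6.10 and 5.98, under the level on every array. Cxcl1, a neutrophil attractant, stood just outside the threshold at 6.49, 6.75 and 6.75 (limma adjusted p = 0.0877), and Ccl5 had 7.01, 6.94 and 6.31 and was called only when replicate 5 was left out (limma adjusted p = 0.00703, against 0.124 with all arrays). The lowest chemokine was Cxcl15 (4.12 ± 0.12, SD, n = 3) and the lowest chemokine receptor Ccr1 (3.85 ± 0.10, SD, n = 3), which is found on monocytes and neutrophils.

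Cx3cr1, the fractalkine receptor of monocytes, macrophages and microglia, was the chemokine receptor called, at 7.29, 7.95 and 7.71, which is 1.30 above the level (95% interval 0.81 to 1.80, limma adjusted p = 0.000862). Its ligand Cx3cl1 had 6.59, 6.64 and 6.54 and did not pass (limma adjusted p = 0.184). Other markers of macrophages were measured beside it. Of 15, Tyrobp alone passed, at 6.53, 6.73 and 6.92 (limma adjusted p = 0.0495), and its call was lost when replicate 2, 4 or 5 was dropped (limma adjusted p = 0.125, 0.222 and 0.0817). Csf1r, the receptor on which macrophages depend, had 5.70, 5.98 and 6.01, Adgre1, the antigen F4/80, had 4.98, 4.86 and 4.90, and Itgam had 4.28, 4.28 and 4.72, all under the level. Cd68 had 6.43, 6.16 and 6.70, with a mean 0.08 above the level, and did not pass. Tyrobp and Cd68 were the 2 of the 15 markers with a mean above the level. The summed linear signal of the 15 markers was 749, 739 and 843 in replicates 2, 4 and 5, and 14 of them did not pass. The part of macrophage transcripts in the Cx3cr1 signal was not tested. The growth factor Csf1 had 6.73, 6.21 and 6.57 and did not pass (limma adjusted p = 0.426), and Csf2, a growth factor of myeloid cells, was far under the level (4.25 ± 0.14, SD, n = 3).

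Ligands and receptors that bind each other were set side by side. Of 67 textbook pairs, 58 had both genes among those used. Both genes were called in 1 pair, Il13 with Il13ra1, the receptor alone in 11, the ligand alone in 6 and neither in 40, where ligands as a class were called in 8.14% of cases and receptors in 19.7%. The pair of Il13 is called no longer when any 1 of the replicates is left out, since Il13 then misses the threshold, as given above. The receptors called without the ligand of their pair were Il6st (for Il6 and Il11), Lifr, Osmr, Tnfrsf1a, Il15ra, Cx3cr1, Il17rc, Il3ra, Il4ra (paired with Il4) and Tnfrsf13c. The ligands called without the receptor of their pair were Cxcl12 (paired with Cxcr4), Cxcl16, Ccl19, Ccl25, Il27 (paired with Il27ra) and Tnfsf11. This holds for the listed pairs only. Ackr3, Il6st and Il13 were called but were not paired with Cxcl12, Il27 and Il4ra in turn. Receptors with several chains stand in each pair by 1 chain, and transcripts of cells outside the sort were not measured.

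**Figure D4:**
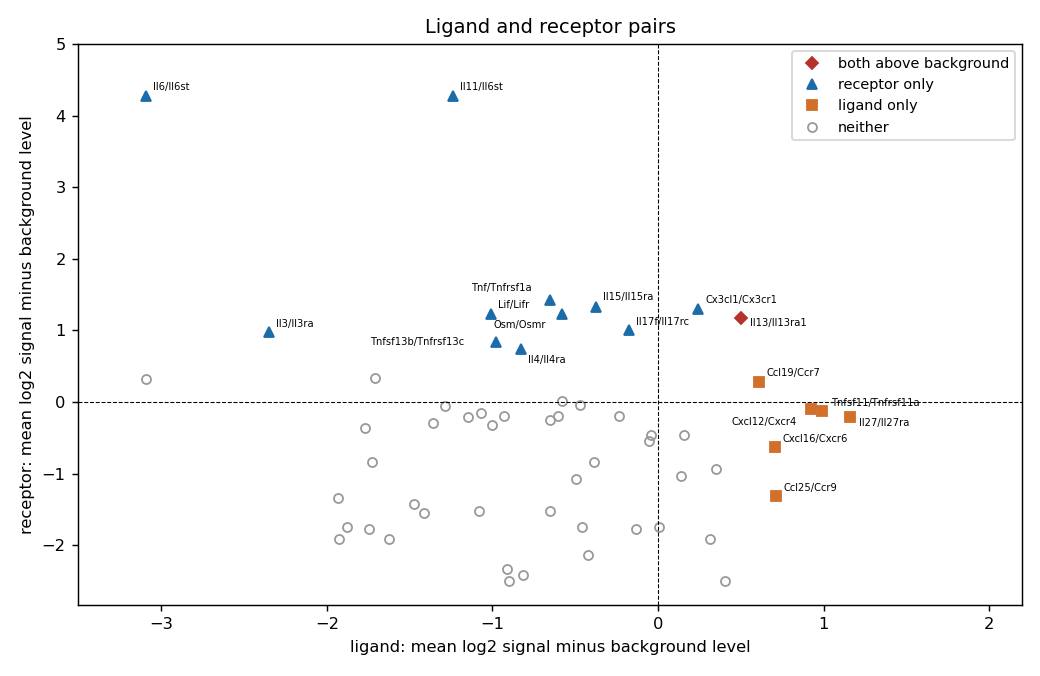
Each point is 1 of 58 ligand and receptor pairs, placed by the mean log2 signal minus the background level of the ligand (x) and of the receptor (y), with dashed lines at the level. Pairs with at least 1 called gene are named, and the 11 pairs with only the receptor called lie above the horizontal line.

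Genes that act downstream of the receptors were counted in the same fit. Of 23 measured genes of the JAK and STAT pathway 14 passed (60.9%, against 37.0% of all genes), with a list median 0.51 above the level. Jak1, the kinase used by gp130 and by many interleukin receptors, had 10.86, 10.40 and 10.45, and Stat3, the main factor of gp130, had 8.70, 8.72 and 8.05. The next were Socs5 (8.45 ± 0.21), a feedback inhibitor, and Pias1 (8.34 ± 0.63), while Stat4 (4.57 ± 0.15) did not pass (SD, n = 3). Without replicate 4 the count was 9, where 31.5% of all genes were called, and without replicate 2 it was 10, where 30.5% were.

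Of 22 genes of TNF and NF-kB signalling 7 passed (31.8%, against 37.0% of all genes; median 0.16 above the level), among them Tab2 (8.18 ± 0.70) and Map3k7 (7.88 ± 0.20), which act in 1 kinase complex, the death receptor adaptor Fadd (7.36 ± 0.52) and the NF-kB inhibitor Nfkbia (7.31 ± 0.20), and not Traf1 (4.83 ± 0.18, SD, n = 3). Without replicate 2 this count was 3, where 30.5% of all genes were called, and Fadd then missed the threshold (limma adjusted p = 0.0531). Of 6 genes of IL-1 and Toll-like receptor signalling, where 37.0% of all genes passed, 3 did, Tollip (7.70 ± 0.17), Irak1 (7.34 ± 0.14) and Sigirr (7.12 ± 0.13), while Irak3 (6.25 ± 0.22, SD, n = 3) did not. Myd88 had 7.76, 6.37 and 6.81 in replicates 2, 4 and 5 and did not pass either (limma adjusted p = 0.0752).

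Relatives of the members under other names were counted too, with 23.1%, 14.3% and 17.6% called in 3 lists, against 37.0% of all genes. Of 13 chemokine relatives 3 passed, namely Rarres2, the chemerin precursor (11.56, 11.02 and 11.36), Mif, macrophage migration inhibitory factor (11.67, 11.38 and 10.81), and Ackr3, and the lowest was Ackr1 (4.61 ± 0.23). Of 14 TNF family genes 2 passed, Ltbr (6.87 ± 0.16) and Cd40 (6.76 ± 0.17), with Cd40lg lowest (4.58 ± 0.23). Without replicate 2 the TNF family count was 0, without replicate 4 also 0 and without replicate 5 it was 1. The shares of all genes called were then 30.5%, 31.5% and 39.3%. Of 17 further cytokines and receptors 3 passed, the growth hormone receptor Ghr (9.43 ± 0.25), Ctf1 and the growth factor gene Flt3l (6.85 ± 0.23), and Epo (4.67 ± 0.18, SD, n = 3) was lowest. Without replicate 2 this count was 1, where 30.5% of all genes were called.

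Differences between single arrays have no replicate and no test. The median SD of a member was 0.20 on the log2 scale, against 0.22 over all genes. Of the 23 called members 1, Osmr, differed by over 1 log2 unit between its highest and lowest array, against 13.8% of all called genes. Over all 164 members there were 3, against 8.66% of all genes, and the other two, Il15 and Il10rb, were picked out after their values were seen. Of the 164 members 99 had their highest signal in replicate 5, 42 in replicate 4 and 23 in replicate 2, and replicate 5 also had the highest background level. Among the 23 called members the numbers were 6, 10 and 7. The same counts over all genes were not taken. The median difference of replicate 5 from the mean of the other arrays was 0.16 over the members and 0.04 over all genes. It was 0.08 over the called members and -0.19 over all called genes.

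Il15, a cytokine that sustains natural killer and memory T cells, had 7.47 in replicate 2, against 5.42 and 5.01 in replicates 4 and 5. It thus lay above the level in replicate 2 and under it in the others, and it was not called. Osmr in replicate 2 exceeded its mean over replicates 4 and 5 by 1.10. Il10rb, a receptor chain shared by IL-10 and IL-22, had 7.05 and 7.00 in replicates 2 and 4, against 5.80 in replicate 5, and it was called without replicate 5 (limma adjusted p = 0.00502, against 0.421 with all arrays).

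Of the 14 endothelial markers 13 were highest in replicate 2 as well, and Tek, at 6.41, 7.11 and 6.63, was lowest there. Ptprb had 10.16, 7.36 and 8.16 in replicates 2, 4 and 5, Pecam1 had 9.03, 6.87 and 6.79 and Cdh5 had 8.70, 7.08 and 6.59. The summed linear signal of the 14 endothelial markers was 4716 in replicate 2, against 2071 and 2007 in replicates 4 and 5. Their count above background was 4, 7 and 12 without replicate 2, 4 and 5, against 8 with all arrays. The shares of all genes called were 30.5%, 31.5% and 39.3%, against 37.0% with all arrays. The part of endothelial transcripts in the signals of Il15, Osmr and Il6st was not tested. A maximum in replicate 2 was not particular to endothelial genes. It was seen for 9 of 12 mural and renin cell markers and 13 of 22 TNF and NF-kB signalling genes, but 1 of 14 tubule markers. The summed signal of the mural and renin cell markers was 38508, 31458 and 34279 in replicates 2, 4 and 5. The part of their transcripts in the signals of the members was not tested. The 14 tubule markers had sums of 27329, 31798 and 24003 in replicates 2, 4 and 5. The part of tubule transcripts in the signals of the members was not tested either. With replicate 2 left out, Osmr remained above background (limma adjusted p = 0.0453), as did Il6st. Since 4 of the 14 endothelial markers were also called then, leaving out this array cannot separate the sources.

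**Figure D5:**
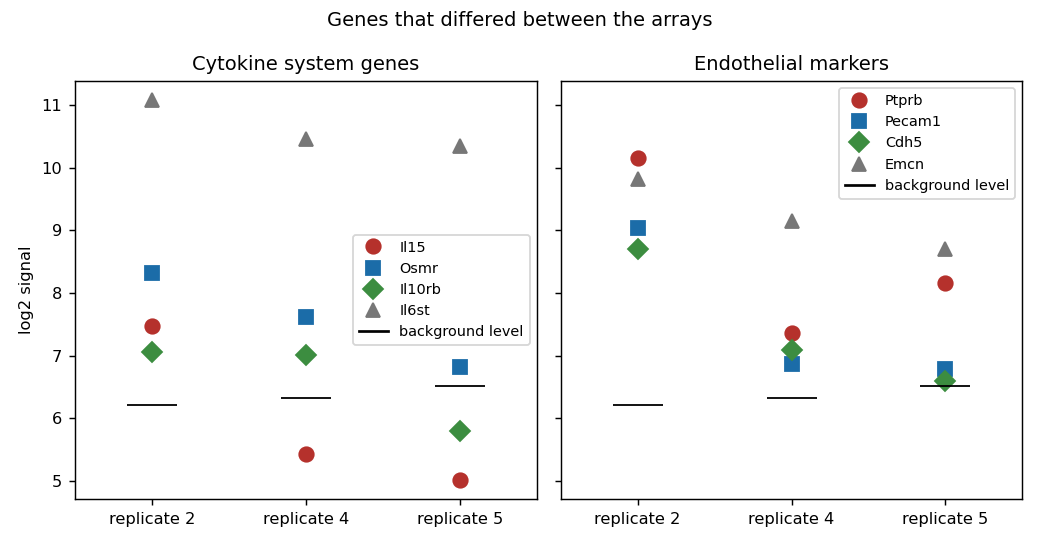
Log2 signal in replicates 2, 4 and 5 of Il15, Osmr, Il10rb and Il6st (left) and of the endothelial markers Ptprb, Pecam1, Cdh5 and Emcn (right), with the background level of each array as a line. Il15 lies above the level in replicate 2 alone, at 7.47, and the 4 endothelial markers drawn are highest in the same array.

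The members' places in the genome were compared with their calls. In RefSeq's order of protein-coding genes, 77 members lie next to another member, as in the clusters of Ccl genes and of the IL-1 family. Of these 77 members 8 were called, namely Il6st, Il15ra, Cx3cr1, Lifr, Osmr, Il17rc, Il4ra and Il13. None of the 8 is a Ccl or IL-1 family gene. Of the 85 members with no such neighbour 15 were called, and both shares lie under the 37.0% of all genes. Neighbouring genes outside the members were not counted. The medians lay 0.83 and 0.45 log2 units under the level. Osmr and Lifr are neighbours of each other and were both called.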

How the data were processed

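RNA of the sorted cells was amplified with NuGEN kits in 1 round, labelled with biotin and hybridised to Affymetrix arrays, per the labels' protocols. The values are those the authors deposited, made with Affymetrix Expression Console per the submitters' processing notes; no source used here gives its version or the normalization. The deposited values were taken as log2 intensities from their range (array medians 6.09, 6.11 and 6.21), which is inferred and not stated. Symbols came from the platform annotation (21789 probe sets with 1 symbol, 1621 with several and 12147 unlisted), and all 173 member symbols matched RefSeq by Entrez ID. A gene took its brightest probe set.

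Log2 signal minus the array's background level was fitted with limma 3.58.1 (R 4.3.3; intercept only, eBayes with trend) over 19938 genes, with a one-sided test and Benjamini-Hochberg adjustment. Intervals are 95% and two-sided, and 3 arrays limit the precision. Alternatives were the 99th percentile, vomeronasal genes as level, the mean of probe sets, quantile normalization, leaving out genes under the 25th percentile, no trend, and each array left out.

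Named were the called members, the brightest and dimmest of each class, the 3 on each side of the threshold, a list of well-known genes, and up to 4 brightest called genes and the lowest gene of each other list. Il1r1 was not analysed here. Other genes given with values fall outside that rule and were chosen after their values were seen. Among them are Il15, Il10rb, Ccl5, Tnfsf10, Il18, Tnfrsf11a, Stat6, Cntfr, Tek, Cd79a, Cd79b, Ms4a1 and Adgre1. So are Ebi3, Tyk2, Il17ra, Csf2rb, Il20ra, Il22ra1, Myd88 and Cd68. The members and lists were chosen with earlier results of these data known.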

Additional observations from a re-analysis of the deposited data

How the results depend on the processing

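The counts moved most with the background level. With the 99th percentile as level 3 members were above background, and with the vomeronasal level 80, against 23 by the level used. The 3 were Il6st, Tnfrsf21 and Tnfrsf12a. Tnfrsf1a, Il15ra, Cx3cr1, Lifr, Osmr, Il13ra1, Il27, Il17rc, Tnfsf11, Il3ra, Il20rb and Cxcl12 lost their call there, with means still above that level. Under the same alternatives 0 and 2 called members differed by over 1 log2 unit between arrays (1 by the level used), and 0 and 15 pairs had both genes called (1). Of the genes of the other pathway lists 9 and 75 were called, where 16.5% and 67.3% of all genes were. By the level used 32 were, where 37.0% of all genes were. With the 99th percentile the mean of these called genes fell under the level, as that level is higher by construction: Ccl19 (-0.25), Ccl25 (-0.15), Cxcl16 (-0.15), Il13 (-0.36), Il17rd (-0.12), Il18bp (-0.0097), Il4ra (-0.12), Tnfrsf13c (-0.0212), Cd40 (-0.45), Ltbr (-0.34), Ctf1 (-0.25), Flt3l (-0.36), Sigirr (-0.0935), Tyrobp (-0.48), Col3a1 (-0.0735), Cspg4 (-0.0456) and Slc4a1 (-0.30). Leaving out 1 array gave 19 to 25 called members (30.5% to 39.3% of all genes), 0 to 1 called members over 1 log2 unit apart, 0 to 0 pairs and 20 to 34 pathway genes. Of the 23 called members 19 were called without each replicate in turn. Quantile normalization called 23 members (37.5% of all genes) and the mean of probe sets 20 (36.9%). Leaving out dim genes or the trend called 24 (51.4% and 37.0% of all genes), with Tnfrsf11b gained. Where leaving out an array changed a call, the cause was not tested. No paired analysis was possible because the series holds 1 group.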

Other observations

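Some cytokine genes are read only by probe sets that the platform annotation gives several symbols, which were in no comparison. The probe set shared by Tnfsf12, Tnfsf13 and Tnfsfm13 had 7.45, 7.50 and 7.45 log2 signal in replicates 2, 4 and 5, above the background level of each array, and which of these genes gave the signal cannot be told apart. The 2 probe sets shared by Il22 and Iltifb had 4.76, 5.14 and 5.40 and 4.96, 5.29 and 5.66, under the level on every array.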
